A study of Homo sapiens with 32 samples.

Results

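THP-1 cells that lack ATP-citrate lyase (KO) were compared with THP-1 cells that hold a catalytically inactive form of the enzyme (H760A, HA), both after 3 h of lipopolysaccharide (LPS). The 4 KO LPS libraries were set against the 4 HA LPS libraries over 12339 of the 60107 genes in the tables, namely those whose normalized count averaged at least 10 over these 8 libraries. The comparison asks whether the absence of the protein and the loss of its activity alone leave LPS-treated cells with the same transcriptome. After LPS, KO and HA cells differed in few single genes at the limit used for calls, and 1 gene, the interferon-stimulated gene IFI44L, passed it with a level 2.53-fold higher in KO. Mean levels were higher in KO for 56 of 58 interferon-stimulated genes and for 8 of 8 guanylate-binding proteins and CXCR3 ligands, whereas MHC class II genes had a median difference of 0.13 on the log2 scale. Of all genes tested, 51.4% had a higher mean in KO. The gene lists were chosen with earlier results of these data known, so that their counts and medians are descriptive only.

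THP-1 is a human monocytic line from a myeloid leukemia. RNA of KO, WT, HA and SA (S455A) cells, each untreated or given LPS at 100 ng/ml, was sequenced as 32 libraries, 4 in each of 8 groups, with a kit that reads the 3′ end of transcripts. The labels give this LPS concentration, and the general paragraph of the methods on treatments gives a lower one. According to the study, ACLY knockout THP-1 cells were transduced with lentiviral constructs for wild-type, H760A or S455A ACLY. Selection with puromycin gave the WT, HA and SA lines, so that KO and HA share the same disrupted ACLY gene. Whether KO cells received a vector is not stated in the sources used here. Each genotype is 1 line, so that a group's 4 libraries repeat that line. The p-values measure only the spread between libraries of a group, pooled over all 8 groups, and not that between independent lines. The presence of inactive ACLY cannot be told apart from other differences between the lines, such as the transduction itself.

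ACLY splits citrate into acetyl-CoA and oxaloacetate, and the acetyl-CoA feeds the synthesis of fatty acids and sterols and the acetylation of histones. LPS is bound by CD14 and the LY96-TLR4 receptor on monocytes and activates NF-kB and MAP kinases through MYD88. Through a separate adaptor it activates IRF3 and the IFNB1 gene. Secreted interferon then acts through JAK kinases and transcription factors on genes with an interferon-stimulated response element in their promoters.

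The 8 libraries had 8041764 to 13002790 reads on genes, and the 32 libraries had 6504099 to 14750815. The deposited tables were normalized separately for each line, which shifted KO against HA after LPS by -0.25 on the log2 scale relative to a joint scale. All levels given here are therefore recovered reads divided by size factors computed jointly over the 32 libraries, and fold changes are KO over HA on the scale of log2(normalized count + 1), where changes of low genes are understated. Differences were tested with limma, in 1 fit that gives each of the 8 groups its own mean, and called at an adjusted p below 0.01. Libraries KO LPS 3 and HA LPS 1 stood farthest from their groups, with SDs over genes of 0.677 and 0.696 in log2 deviation from the group mean against 0.316 to 0.457 in the other 6 libraries. Library SA LPS 1, which enters the fit only through the estimate of the spread, stood apart at 1.37. Mitochondrial transcripts took 5.43 to 8.02% of the reads in KO LPS libraries and 5.6 to 8.36% in HA LPS libraries. Of 15 monocyte markers 15 had a mean of at least 10 in the 8 libraries, against 1 of 10 T and NK cell markers, 2 of 8 B cell markers, 0 of 10 erythroid and megakaryocytic markers and 0 of 10 epithelial and fibroblast markers. CD2, CD3D, CD3E, CD3G, GNLY and LCK of the T and NK cell list were at 0 in all 8 libraries.

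ACLY (ENSG00000131473) was counted at 68.8, 99.9, 77.8 and 60.3 in the KO LPS libraries and at 60.3, 64.8, 74.3 and 88.2 in the HA LPS libraries. These values overlapped, and the log2 fold change was 0.08 ± 0.28 (SE, adjusted p = 0.923), with -0.53 for KO and -0.61 for HA over WT. ACLY reads thus did not separate cells with a construct from cells without one. The libraries read the 3′ end and the constructs hold the coding sequence, so that the count does not check the labels. B2M, the reference gene of the study's PCR assays, was at 49146, 58849, 32994 and 41008 in KO and at 36518, 29533, 28713 and 31601 in HA, with a log2 fold change of 0.50 ± 0.21 (adjusted p = 0.366).

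IFI44L, an interferon-stimulated antiviral gene on chromosome 1 (78619902 to 78646145 of GRCh38, plus strand), had normalized counts of 6253, 5409, 3624 and 4113 in the KO LPS libraries and of 2439, 1863, 1708 and 1587 in the HA LPS libraries. Every KO library was above every HA library, and the WT LPS libraries were lower than both, at 679 ± 50.6 (SD, n = 4). The log2 fold change of KO over HA was 1.34 ± 0.20 (limma, adjusted p = 0.00534). IFI44L was the only gene of 12339 called, which is 0.00810% of the genes tested, and no gene was called lower in KO. In bulk libraries the number of cells that express a gene and the RNA per cell cannot be told apart. Before adjustment, 724 genes had a higher and 583 a lower level in KO at p below 0.05. The difference kept its direction when any 1 of the 8 libraries was left out, with log2 fold changes of 1.21 to 1.47. The call was lost without KO LPS 1, KO LPS 2, HA LPS 2, HA LPS 3 or HA LPS 4, with adjusted p = 0.0364, 0.0476, 0.0318, 0.0243 and 0.0151, and in a fit of the 8 libraries alone (adjusted p = 0.146).

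Since 1 call describes little, a limit of 0.05 was added after the values were seen. At that limit 25 genes differed, 18 of them higher in KO (0.146% of the genes tested) and 7 lower (0.0567%). In 25 of these 25 genes the KO and HA libraries did not overlap. Of all genes tested, 2.73% were apart with KO higher and 2.44% with KO lower. The 25 genes were selected on these same libraries, so that the lack of overlap adds no support. Those named here were chosen for these values. On the deposited scale 61 genes were called at 0.01 and 2 of them were higher in KO, so that the split between higher and lower genes depends on the joint scale. Those called higher in KO on that scale were IFI44L and CD14, with log2 fold changes of 1.085 and 1.25. Without library SA LPS 1 in the estimate of the spread, 17 genes were called at 0.01, 14 of them higher in KO, and IFI44L, GBP1, HERC5, IFIT3, RSAD2, CD14, MMP9, GPNMB and CCL5 were among these 14. Without KO LPS 3, HA LPS 1, KO 3 and HA 1, the libraries farthest from their groups, 9 genes were called, 8 of them higher in KO.

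**Figure D1:**
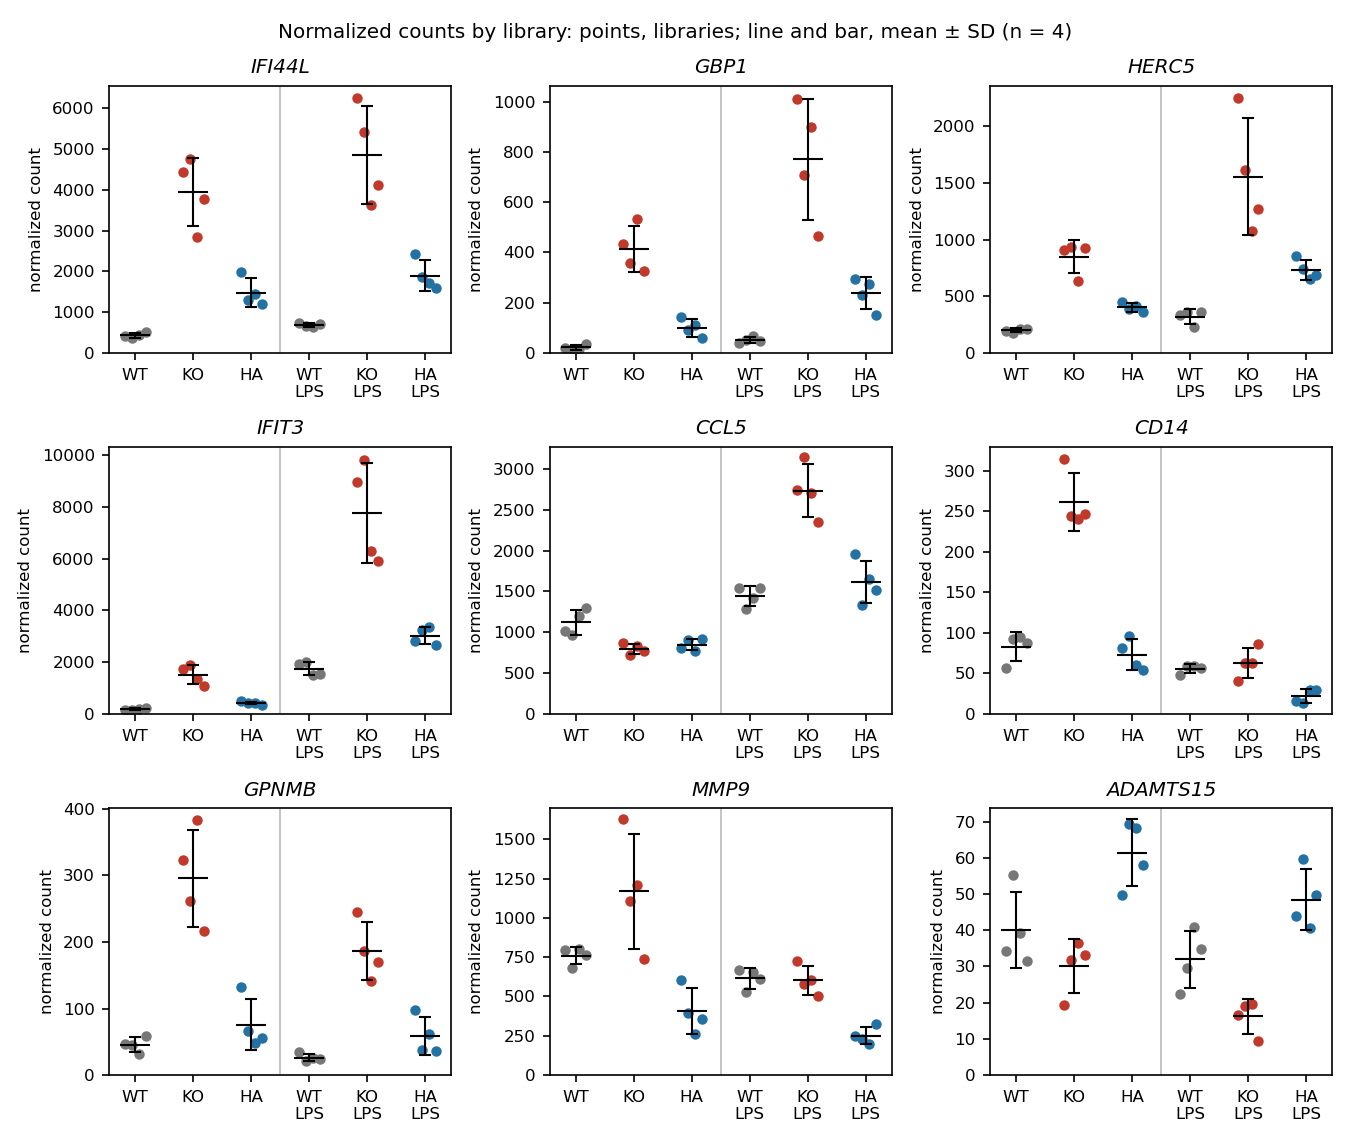
Normalized counts (vertical axis, from 0) of 9 genes in each of the 4 libraries of WT, KO and HA cells, untreated (left) and after LPS (right), with the mean and SD of each group as a line and bars. In the LPS groups the KO points lie apart from the HA points in every panel, above them for 8 genes and below them for ADAMTS15.

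Promoters are shown for the 5 genes of higher level in KO at the 0.05 limit in which the core of an interferon-stimulated response element was found. The core was searched as GAAANNGAAA on both strands, which reads TTTCNNTTTC on the other, in windows of 300 bases, 250 before and 50 from the start of transcription on (RefSeq, GRCh38.p14). Capitals mark the matches. The windows are chr1:78620198-78620497 on the plus strand for IFI44L, chr1:89065159-89065458 on the minus strand for GBP1, chr4:88456869-88457168 on the plus strand for HERC5, chr10:89327747-89328046 on the plus strand for IFIT3 and chr2:37156931-37157230 on the minus strand for EIF2AK2. All are printed 5′ to 3′ in the direction of transcription.
IFI44L: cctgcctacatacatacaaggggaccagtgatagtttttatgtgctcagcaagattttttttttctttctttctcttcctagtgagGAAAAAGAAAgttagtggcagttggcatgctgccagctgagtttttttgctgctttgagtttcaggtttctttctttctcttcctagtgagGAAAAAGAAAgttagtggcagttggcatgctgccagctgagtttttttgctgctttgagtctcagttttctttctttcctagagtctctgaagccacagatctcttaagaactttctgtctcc
GBP1: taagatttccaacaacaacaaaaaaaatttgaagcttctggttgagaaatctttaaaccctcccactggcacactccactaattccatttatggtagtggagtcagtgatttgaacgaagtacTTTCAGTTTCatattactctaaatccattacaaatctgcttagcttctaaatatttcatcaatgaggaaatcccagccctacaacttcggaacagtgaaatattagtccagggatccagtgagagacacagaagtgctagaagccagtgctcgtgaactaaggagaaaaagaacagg
HERC5: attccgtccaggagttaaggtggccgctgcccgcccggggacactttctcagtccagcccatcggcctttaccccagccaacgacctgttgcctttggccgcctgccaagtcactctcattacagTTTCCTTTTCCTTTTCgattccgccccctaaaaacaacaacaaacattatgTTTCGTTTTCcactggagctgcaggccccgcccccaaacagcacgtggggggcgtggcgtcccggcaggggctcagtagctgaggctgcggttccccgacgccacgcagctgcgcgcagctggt
IFIT3: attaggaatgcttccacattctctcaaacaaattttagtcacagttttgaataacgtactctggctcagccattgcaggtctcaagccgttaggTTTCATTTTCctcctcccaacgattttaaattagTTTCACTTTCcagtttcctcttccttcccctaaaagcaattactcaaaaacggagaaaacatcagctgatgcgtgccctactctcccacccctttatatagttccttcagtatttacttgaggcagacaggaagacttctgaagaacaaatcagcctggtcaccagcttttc
EIF2AK2: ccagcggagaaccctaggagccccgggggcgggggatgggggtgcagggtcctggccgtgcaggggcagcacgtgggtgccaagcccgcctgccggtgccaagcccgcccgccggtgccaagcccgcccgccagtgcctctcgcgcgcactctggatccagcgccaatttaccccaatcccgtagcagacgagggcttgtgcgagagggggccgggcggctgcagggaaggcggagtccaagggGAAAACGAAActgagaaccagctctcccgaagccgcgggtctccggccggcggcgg

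IFI44L held the core 2 times, with its first base at positions -164 and -73 from the start, and GBP1 held it at -127. HERC5 held 3 matches, of which those at -125 and -119 overlap, and IFIT3 held it at -156 and -122. In EIF2AK2 the match began at -6. Among all 27305 RefSeq promoters, 996 (3.65%) held the core. Of the 18 genes higher in KO, 12 had an entry and 5 of these held it (41.7%), and of the 7 lower genes 2 had an entry and 0 held it. Of the antiviral list described next, 45 of the 58 genes tested had an entry and 31 held it (68.9%). It was held by 9 of 14 genes of the MHC class I list (64.3%), by 2 of 16 of interferon signalling (12.5%), by 0 of 11 inflammatory cytokines and chemokines and by 0 of 9 MHC class II genes. A match is a stretch of letters and not a measured binding site.

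Interferon-stimulated genes encode proteins that sense, cut or trap viral RNA and protein. Of 58 such genes tested, 56 had a higher and 2 a lower mean level in KO than in HA after LPS, with a median log2 fold change of 0.70 against 0.01 over all 12339 genes. Of all genes, 51.4% had a higher and 48.6% a lower mean in KO. At the limit of 0.01 only IFI44L was called, against 0.00810% of all genes called higher in KO. At 0.05 IFI44L, HERC5, IFIT3, RSAD2 and EIF2AK2 were called, against 0.146% of all genes. In 21 of the 58 the KO and HA libraries did not overlap with KO higher (36.2%, against 2.73% of all genes), and in 0 with KO lower (2.44% of all genes). The filter pools both groups, so that a low gene can pass through its higher group alone. APOBEC3A, among the 21, did so, with means of 23.3 in KO LPS and 3.81 in HA LPS, and its direction is no support. Leaving out KO LPS 3 and HA LPS 1 was chosen after seeing the data. Without them, 49 of 58 were separated with KO higher (84.5%), against 17.4% of all genes. The mean log2 level of the list was 10.1 to 10.6 in the KO LPS libraries, 9.41 to 9.95 in the HA LPS libraries and 8.70 to 8.80 in the WT LPS libraries, so that the 3 lines did not overlap. On the deposited scale the median of the list was 0.45.

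HERC5, the ligase that attaches ISG15 to new proteins, was at 2250.0, 1613, 1075 and 1272 in KO and at 856, 742, 656 and 685 in HA (1.03 ± 0.18, adjusted p = 0.0134). IFIT3, which belongs to a family that binds viral RNA, was at 8972, 9828, 6312 and 5925 in KO and at 2834, 3226, 3353 and 2649 in HA, a log2 fold change of 1.34 ± 0.27 (adjusted p = 0.0266). For both genes KO LPS 1 and 2 were the highest libraries, and the lowest KO library was above the highest HA library. RSAD2 (viperin), which makes a chain-ending nucleotide, was at 999.9, 971, 564 and 560.4 in KO against 219, 219, 257 and 230 in HA, a log2 fold change of 1.68 ± 0.34 (adjusted p = 0.0266). EIF2AK2 (PKR), a kinase that halts translation on double-stranded RNA, was at 4807, 4031, 2725 and 3232 in KO against 2488, 2196, 1853 and 1993 in HA (0.77 ± 0.17, adjusted p = 0.0411). The KO and HA libraries of RSAD2 and of EIF2AK2 did not overlap.

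Other members had libraries apart without passing 0.05. OAS1, which makes the second messenger of RNase L, had a log2 fold change of 0.79 (adjusted p = 0.051). CMPK2 had 0.98 (adjusted p = 0.0587) and MX2, a GTPase that blocks viral nuclear import, had 0.94 (adjusted p = 0.0594). EPSTI1 was at 2270.2, 1802, 800 and 881 in KO and at 807, 498, 543 and 463 in HA, with 1.21 ± 0.27 (adjusted p = 0.0513). KO LPS 3 lay just below HA LPS 1 for EPSTI1, and these are the libraries that stand farthest from their groups. IFI44 overlapped as well, with KO LPS 3 and 4 below HA LPS 1, at 1128, 863, 430 and 445 in KO and at 572, 301, 317 and 272 in HA (0.91 ± 0.31, adjusted p = 0.242). The members with the smallest differences included USP18, which removes ISG15, at 0.13 and IFITM2 at 0.12, and the members below 0 were TRIM14 at -0.17 and APOBEC3F at -0.26.

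Guanylate-binding proteins are GTPases that attack the membranes of intracellular pathogens, and CXCL9, CXCL10 and CXCL11 attract T cells through CXCR3. Of these 8 genes 8 had a higher mean in KO, with a median log2 fold change of 1.46, and in 6 the libraries did not overlap (75%, against 2.73% of all genes). GBP1 (chromosome 1, 89051882 to 89065360, minus strand) was at 1012, 709, 898 and 463 in KO and at 296, 230, 276 and 151 in HA. The lowest KO library was above the highest HA library, and the log2 fold change was 1.68 ± 0.30 (adjusted p = 0.0134). CXCL10 was at 17100.0, 24811, 6427 and 11466 in KO and at 2362, 4638, 3754 and 4508 in HA (1.85 ± 0.43, adjusted p = 0.0603). CXCL11 was at 4910.5, 2759, 1736 and 1671 in KO and at 666, 913, 948 and 727 in HA (1.64 ± 0.38, adjusted p = 0.0566). For both chemokines the libraries were apart, and the KO libraries ranged more widely than the HA libraries. CXCL9 was at 1006, 1362, 509 and 299 in KO and at 199, 189.9, 235 and 103 in HA (1.95 ± 0.68, adjusted p = 0.269). GBP5 and GBP4 had log2 fold changes of 1.28 and 1.14 with libraries apart, and GBP3 and GBP2 had 0.56 and 0.36 with libraries that overlapped. GBP genes are close in sequence, and how reads shared between them were counted is not stated. The mean log2 level of the list was 9.39 to 10.4 in KO, 8.37 to 8.74 in HA and 7.16 to 7.41 in WT after LPS.

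Interferons act on cells through their receptors, JAK kinases and regulators that limit the signal. Of 21 genes tested, 16 were higher and 5 lower in KO, with a median of 0.48, and in 4, among them IRF1, IRF2 and IFNL1, the libraries were apart (19.0%, against 2.73% of all genes). IFNB1 was at 54.6, 83.3, 0 and 3.91 in KO and at 0, 2.21, 0 and 0 in HA, with a mean of 0.434 in WT after LPS. KO LPS 1 and 2 thus held nearly all IFNB1 reads, and the log2 fold change of 3.20 ± 0.91 (adjusted p = 0.159) rests on these 2 libraries. IFNB1 passed the filter on low values only through KO, so that its place among the 16 higher genes is no support. IFNL1, a type III interferon, was at 81.8, 136, 38.3 and 63.4 in KO and at 3.48, 34.6, 8.91 and 17.1 in HA (2.49 ± 0.73, adjusted p = 0.174). SOCS1, an inhibitor of JAK kinases, was at 205, 318, 19.8 and 81.4 in KO and at 3.48, 22.1, 7.92 and 24.8 in HA (3.05 ± 1.02, adjusted p = 0.238), with KO LPS 3 inside the range of HA. The receptor chains IFNAR1 and IFNAR2 had -0.09 and -0.15, and IRF9 had -0.24.

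**Figure D2:**
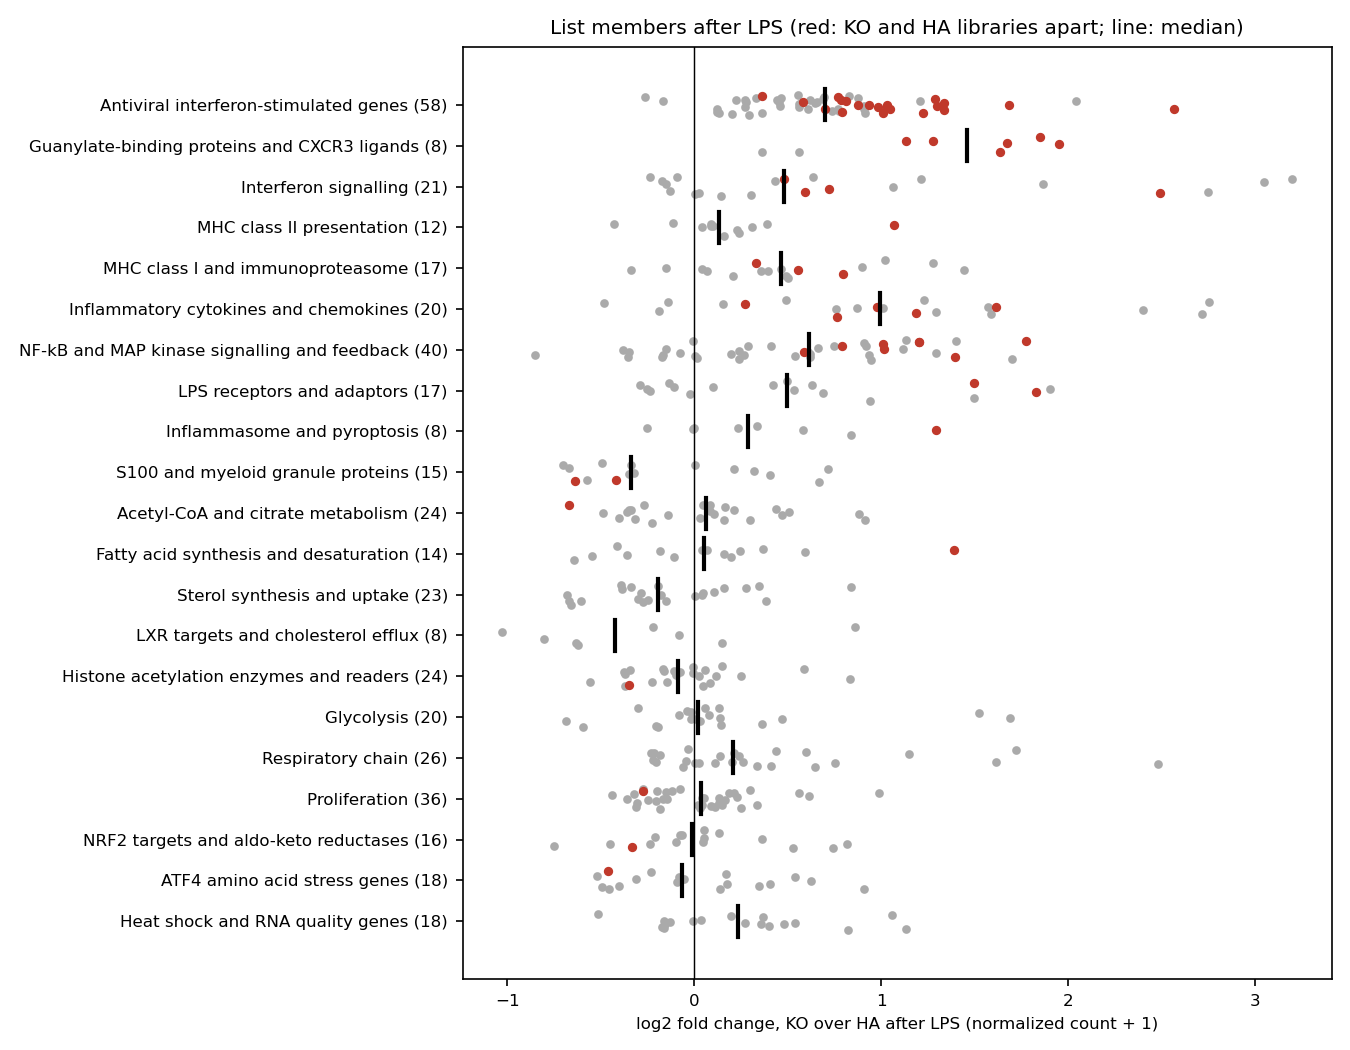
Each point is a gene of the list named at the left, with the number of genes tested, and the horizontal axis is its log2 fold change of KO over HA after LPS. Red points are genes whose 4 KO and 4 HA libraries do not overlap and black lines are list medians, which run from 1.46 for guanylate-binding proteins and CXCR3 ligands to -0.42 for LXR targets.

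MHC class II genes present antigen to helper T cells. Both lines were above WT for this list, and KO and HA differed by a median of 0.13. Of 12 genes tested, 10 had a higher mean in KO, and libraries were apart in 1 (8.3%, against 2.73% of all genes). This was HLA-DQA1, with 1.07 ± 0.69 (adjusted p = 0.582). HLA-DRA was at 3488, 3717, 2646 and 3963 in KO and at 2701, 2872, 2679 and 4181 in HA (0.16 ± 0.30, adjusted p = 0.853), against a mean of 320 in WT LPS. CIITA, the transactivator of these genes, was at 178, 133, 238 and 150.3 in KO and at 240, 147, 152 and 122 in HA (0.09 ± 0.43, adjusted p = 0.947). The libraries overlapped for both genes. The median of the list over WT was 2.52 in KO and 2.40 in HA, while on the deposited scale the median of KO over HA was -0.12. HLA genes are polymorphic, and the reads of both lines were mapped to a reference genome. The MHC class I and immunoproteasome list had a median of 0.46 over 17 genes, with 15 higher in KO, and TAP1, PSMB9 and HLA-E were apart with 0.80, 0.55 and 0.33 (17.6%, against 2.73% of all genes).

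Cytokines and chemokines that LPS induces through NF-kB recruit and activate other leukocytes. Of the 40 genes in the list 20 reached the mean of 10, and 17 of these had a higher mean in KO, with a median of 1.00. In 5, namely CCL5, CCL4, CCL3, CCL3L1 and TNF, the libraries were apart (25%, against 2.73% of all genes). CCL5, which attracts T cells and monocytes, was at 2736, 3146, 2702 and 2345 in KO and at 1952, 1338, 1655 and 1517 in HA, with 1445 ± 124 (SD, n = 4) in WT LPS. The KO libraries were above the HA and WT libraries, and the log2 fold change of KO over HA was 0.76 ± 0.14 (adjusted p = 0.0134). CCL4 was at 2084, 1898, 895 and 1398 in KO and at 348, 562, 458 and 626 in HA (1.61 ± 0.53, adjusted p = 0.237), and near-identical copies of CCL3 and CCL4 (CCL3L1, CCL4L2) could share reads with them. CCL2, a monocyte attractant, was at 2624, 3001, 153 and 978 in KO and at 63.8, 301, 92.1 and 345 in HA (2.72 ± 1.25, adjusted p = 0.438). KO LPS 3 lay within the range of HA for CCL2, so that its spread within KO was as wide as its distance from HA. IL6 had under 10 counts on average, at 2.37, 15.5, 1.23 and 0 in KO and at 0 in all 4 HA libraries, and was not tested. TNF had a log2 fold change of 0.27 and IL1B of 0.87, with adjusted p = 0.525 and 0.406.

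Among 40 genes of NF-kB and MAP kinase signalling and feedback, 31 had a higher mean in KO with a median of 0.61, and 8 had libraries apart (20%, against 2.73% of all genes). These were DUSP6, TRAF1, CD40, PTX3, PTGS2, DUSP5, ATF3 and JUN. DUSP6, a phosphatase that switches off ERK, was at 652, 913, 189 and 360 in KO and at 99.7, 185, 100.0 and 155 in HA (1.78 ± 0.43, adjusted p = 0.0624). The subunits NFKB1, NFKB2, RELA and REL had log2 fold changes of 0.29, 0.02, -0.38 and -0.36, with no separation of the libraries.

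The LPS receptor and adaptor list had a median of 0.49 over 17 genes, 11 of them higher in KO, as were 51.4% of all genes. CD14 and LY96 were apart (11.8%, against 2.73% of all genes). CD14 (chromosome 5, 140631728 to 140633700, minus strand) was at 40.3, 63.0, 63.0 and 86.1 in KO and at 16.2, 13.2, 29.7 and 30.0 in HA. All KO libraries were above all HA libraries, and the log2 fold change was 1.495 ± 0.26 (adjusted p = 0.0134). The WT LPS libraries were at 55.9 ± 5.47 (SD, n = 4), so that the log2 difference from WT was 0.13 in KO and -1.37 in HA (limma, adjusted p = 0.91 and 0.00116). LY96, the LPS-binding partner of TLR4, was at 16.6, 34.5, 23.5 and 22.7 in KO and at 2.32, 7.36, 4.95 and 12.8 in HA (1.83 ± 0.63, adjusted p = 0.264). LY96 passed the filter on low values only through KO, so that its direction is no support. MYD88 was at 471, 660.1, 91.4 and 308 in KO and at 49.9, 98.6, 63.4 and 138 in HA (1.90 ± 0.88, adjusted p = 0.441), with KO LPS 3 inside the range of HA. AIM2, a sensor of cytosolic DNA from the inflammasome list, had libraries apart with 1.29 ± 0.41 (adjusted p = 0.223), and the median of that list was 0.29 over 8 genes.

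The remaining genes at the 0.05 limit belong to different families. MMP9, a matrix-degrading protease, was at 725, 579, 603 and 502 in KO and at 246, 228, 198 and 324 in HA, a log2 fold change of 1.28 ± 0.22 (adjusted p = 0.0134). The log2 difference of MMP9 from WT was -0.04 in KO and -1.32 in HA (limma, adjusted p = 0.976 and 0.000351), so that for CD14 and MMP9 HA and not KO was called against WT. GPNMB, a membrane glycoprotein of lysosomes and macrophages, was at 246, 187, 142 and 169.8 in KO and at 97.4, 38.3, 62.4 and 36.0 in HA (1.74 ± 0.32, adjusted p = 0.0134), and WT LPS was below both at 26.2 ± 5.85 (SD, n = 4). SLAMF7, a surface receptor of leukocytes, had 1.28 (adjusted p = 0.0266). ADAMDEC1, APOL6, ARHGAP18, TCF4, NIP7 and RGS16 had 0.76, 0.73, 0.65, 0.58, 0.54 and 1.27. The KO and HA libraries of all these genes, on which the genes were selected, did not overlap.

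The 7 genes lower in KO were ADAMTS15, ANKRD35, NR2F6, SLPI, AL451062.1, HIC2 and BMP8B. ADAMTS15, a secreted metalloprotease, was at 16.6, 19.0, 19.8 and 9.39 in KO and at 44.1, 59.6, 40.6 and 49.7 in HA, a difference of -1.56 ± 0.29 on the log2 scale (adjusted p = 0.0134). SLPI, a secreted inhibitor of leukocyte proteases, was at 362, 395, 409 and 484 in KO and at 655, 689.5, 651 and 851 in HA (-0.78 ± 0.16, adjusted p = 0.0302), with 314 ± 25.2 (SD, n = 4) in WT LPS. NR2F6, a nuclear receptor, was at 200.45, 152, 237 and 211 in KO and at 375, 373, 378 and 388 in HA (-0.93 ± 0.19, adjusted p = 0.0266). The KO libraries of these 3 genes were below the HA libraries, and for SLPI the order was WT, KO and HA from low to high. AL451062.1, which GENCODE release 44 names ST3GAL3-AS1, had -1.58, ANKRD35 -1.17, BMP8B -0.80 and HIC2 -0.75. AL451062.1 is annotated as antisense to another gene, and whether the counting used strand is not stated.

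**Figure D3:**
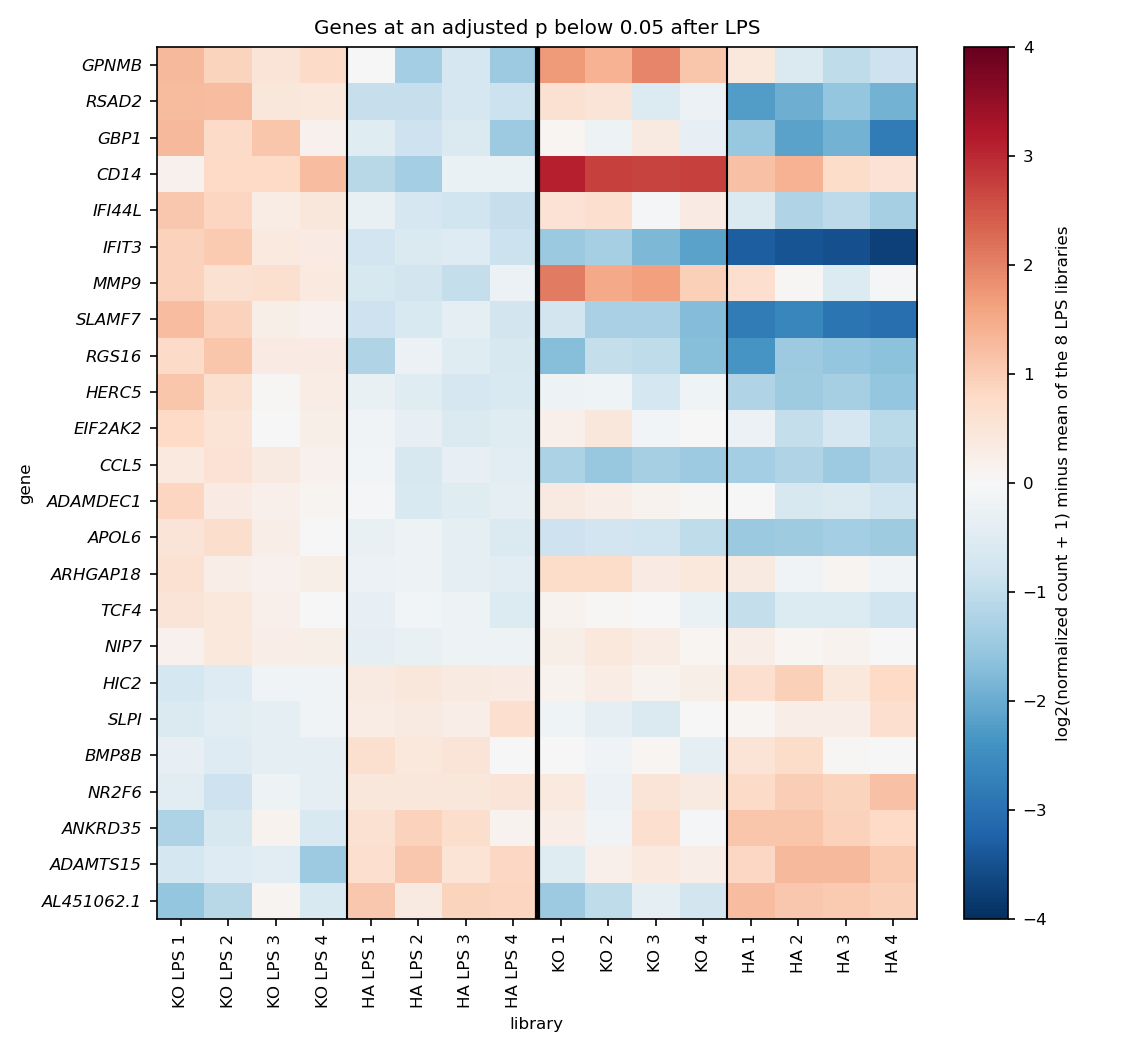
Rows are 24 of the 25 genes with an adjusted p below 0.05 after LPS, ordered by fold change, and columns are single libraries. Colour gives log2(normalized count + 1) minus the mean of the gene's 8 LPS libraries at the left of the thick line, where the 4 KO columns and the 4 HA columns have mostly opposite colours since the genes were selected on them. The untreated libraries at the right were not used in the selection.

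S100 and granule proteins of myeloid cells had a median of -0.34, and none was called. Of 15 genes, 9 were lower and 6 higher in KO, against 48.6% and 51.4% of all genes. Libraries were apart with KO lower in 2, ELANE (-0.64) and RNASE2 (-0.42), against 2.44% of all genes. Without KO LPS 3 and HA LPS 1 the libraries were apart with KO higher in 5 (33.3%, against 17.4% of all genes). They were apart with KO lower in 4 (26.7%, against 12.6% of all genes). S100A12, a calcium-binding alarmin, was at 3129, 3192, 3697 and 3553 in KO and at 4678, 3576, 4339 and 4736 in HA (-0.35 ± 0.12, adjusted p = 0.237), against a mean of 660 in WT LPS. Both lines were thus above WT for S100A12, with log2 fold changes of 2.36 and 2.70. BEX1 was at 115, 89.2, 137 and 116 in KO and at 47.5, 67.0, 95.1 and 66.8 in HA (0.74 ± 0.21, adjusted p = 0.162), and its mean in WT LPS was 536.

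No gene of the metabolic lists was called at either limit. Calls were few among all genes too, 0.00810% at 0.01, and 0.146% higher and 0.0567% lower at 0.05. Libraries were apart with KO higher in 1 fatty acid gene (7.1%, against 2.73% of all genes). They were apart with KO lower in 1 gene each of acetyl-CoA metabolism, histone acetylation, proliferation, NRF2 targets and ATF4 targets, against 2.44% of all genes. Acetyl-CoA and citrate metabolism had a median of 0.07 over 24 genes, fatty acid synthesis and desaturation 0.05 over 14, glycolysis 0.02 over 20, sterol synthesis and uptake -0.19 over 23 and histone acetylation enzymes and readers -0.09 over 24. ACSS2, which makes acetyl-CoA from acetate, was at 96.1, 153, 189 and 161 in KO and at 336, 166, 169 and 147 in HA (-0.41 ± 0.30, adjusted p = 0.62). FASN, which builds palmitate from acetyl-CoA units, was at 1196, 1983, 2349 and 2026 in KO and at 3247, 3123, 2326 and 2169 in HA (-0.55 ± 0.22, adjusted p = 0.365). The libraries of ACSS2 and of FASN overlapped. LXR targets and cholesterol efflux genes had a median of -0.42 over 8 genes with 0 apart, and ABCA1 was at 99.6, 34.5, 6.17 and 7.83 in KO and at 1.16, 18.4, 27.7 and 16.3 in HA (0.86 ± 0.67, adjusted p = 0.637). This value rests on single libraries, since the log2 fold change of ABCA1 was 0.036 without HA LPS 1 and 1.40 without KO LPS 3. ABCG1 and AKR1C2 were below the filter on low values. Proliferation genes had 0.03 over 36, NRF2 targets -0.01 over 16 and ATF4 targets -0.07 over 18. NDUFB3, a subunit of complex I, had the largest fold change of the metabolic lists and was at 846, 1469, 67.9 and 490 in KO and at 42.9, 103, 34.7 and 266 in HA (2.48 ± 1.48, adjusted p = 0.553), with KO LPS 3 inside the range of HA. Respiratory chain genes had 0.21 over 26 and heat shock and RNA quality genes 0.23 over 18, and both of these turned to -0.05 and -0.02 on the deposited scale. Without KO LPS 3 and HA LPS 1, 11 of 26 respiratory chain genes were apart with KO higher (42.3%, against 17.4% of all genes) and 1 with KO lower. Of 24 histone acetylation genes, 8 were then apart with KO lower (33.3%, against 12.6% of all genes) and 1 with KO higher. The deposited scale also turned the medians of acetyl-CoA metabolism (-0.19), fatty acid synthesis (-0.20), glycolysis (-0.23) and proliferation genes (-0.22) below 0.

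The lists were also set against the same 4 WT LPS libraries. The median log2 fold change over WT of the antiviral list was 1.64 in KO and 0.91 in HA, and that of guanylate-binding proteins and CXCR3 ligands was 2.71 and 1.20. For inflammatory cytokines and chemokines it was 1.93 in KO and 0.71 in HA, and for interferon signalling 1.10 and 0.10. Sterol genes stood at 0.52 in KO and 0.59 in HA. Over all genes tested these medians were 0.01 and -0.01. Since both contrasts use the same WT libraries, the values are given side by side, without a measure of their likeness.

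**Figure D4:**
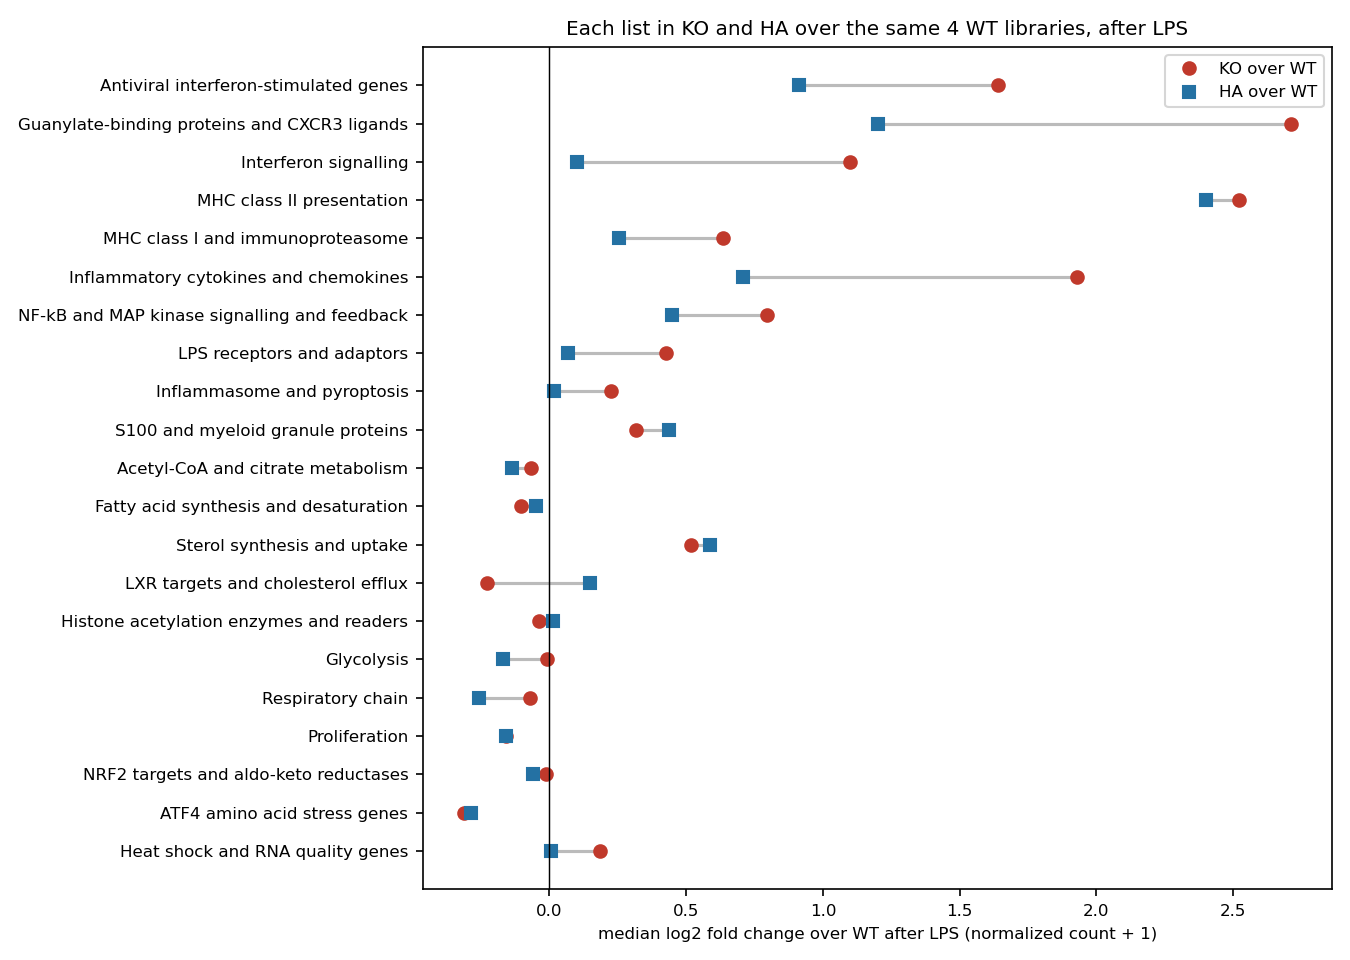
For each gene list, the red circle is the median log2 fold change of KO over WT and the blue square that of HA over WT after LPS (horizontal axis). The widest gaps are at guanylate-binding proteins and CXCR3 ligands (2.71 and 1.20) and at inflammatory cytokines and chemokines (1.93 and 0.71), and the points of MHC class II genes lie close together (2.52 and 2.40).

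The KO and HA cells were also compared without LPS, in 8 other libraries. Of the same 12339 genes, 28 were called at an adjusted p below 0.01, 25 higher in KO (0.203%) and 3 lower (0.0243%), and 343 (2.78%) were apart with KO higher and 271 (2.20%) with KO lower. IFI44L was at 4433, 4753, 2847 and 3767 in untreated KO and at 1994, 1297, 1443 and 1192 in untreated HA, a log2 fold change of 1.42 (adjusted p = 0.000342). Of the 25 genes at the 0.05 limit after LPS, 24 had the same sign untreated and 13 were called untreated (52% of the 25 and 46.4% of the 28). The exception in sign was CCL5. The 28 genes called untreated all had the same sign after LPS. The share of all 12339 genes that kept their sign was not counted. These counts are therefore not read as particular to the selected genes. Genes apart with KO higher in both conditions numbered 95, which is 28.2% of those after LPS and 27.7% of those untreated. With KO lower they numbered 45 (15% and 16.6%), and 0 genes were apart in opposite directions. Across genes, which are not independent replicates, the log2 fold changes of the 2 conditions had Pearson's r = 0.695 and Spearman's rho = 0.688. The conditions are not fully independent, as KO 3 and KO LPS 3 deviated together from their groups (r = 0.683 across genes), as did HA 1 and HA LPS 1 (r = 0.399). The antiviral list had a median of 0.81 untreated and 0.70 after LPS, guanylate-binding proteins and CXCR3 ligands 0.96 and 1.46, and MHC class II genes 0.17 and 0.13.

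**Figure D5:**
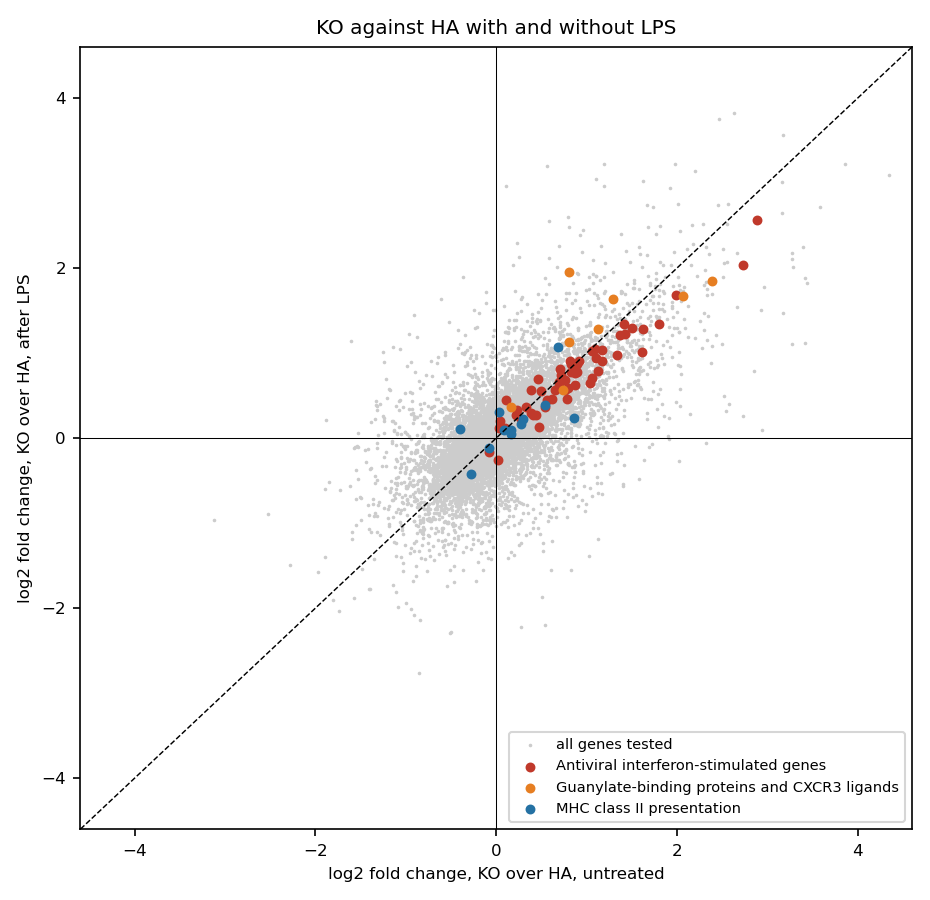
Each point is 1 of the 12339 genes tested, with its log2 fold change of KO over HA in untreated cells on the horizontal and after LPS on the vertical axis, and the dashed line marks equal values. Antiviral genes (red) and guanylate-binding proteins and CXCR3 ligands (orange) lie mostly in the upper right, and MHC class II genes (blue) have medians of 0.17 untreated and 0.13 after LPS.

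Whether LPS itself changed the difference between KO and HA was tested as an interaction. At adjusted p limits of 0.01 and 0.05 no gene was called by limma, and 128 genes had an unadjusted p below 0.05. The smallest p belonged to TNFRSF9 (4-1BB), a costimulatory receptor, which is named for that reason. TNFRSF9 was at 51.3, 30.7, 29.7 and 31.3 in untreated KO and at 2.03, 8.78, 3.54 and 5.29 in untreated HA, whereas after LPS it was at 80.7, 53.5, 59.3 and 61.0 in KO and at 48.7, 64.8, 46.5 and 51.4 in HA. The untreated libraries were apart and the LPS libraries overlapped, with an interaction of -2.47 ± 0.50 (limma, adjusted p = 0.429). CCL5 went the other way. It was at 864, 726, 836 and 767 in untreated KO and at 810.2, 908, 768 and 912 in untreated HA, which overlapped, and the LPS libraries were apart. The log2 change of CCL5 with LPS was 1.77 in KO and 0.92 in HA, and the interaction was 0.85 ± 0.20 (limma, adjusted p = 1). For IFI44L, the gene called after LPS, the interaction was -0.08 ± 0.29 (adjusted p = 1).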

How the data were processed

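RNA of 32 THP-1 cultures was made into QuantSeq 3′ libraries and sequenced by the authors. Their methods name Bbduk for trimming, STAR for the mapping to GRCh38, HTSeq-count for the reads per gene and DESeq2 for the analysis, and the annotation release is not given in the sources used here. In the deposited files the unit is the normalized count, written with a decimal comma, and a table holds the 4 libraries of a group. Each value was a whole multiple of the library's step within 0.05 reads (100.000% of the values above 0), which gave back the reads. The 92 spike-in rows (1 read in all) were left out. The deposited factors were those of each line alone, so that joint median-of-ratios factors over the 11489 genes with reads in all 32 libraries were used instead.

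Groups and replicate numbers were taken from the sample labels. Genes with a mean of at least 10 over the 8 KO LPS and HA LPS libraries entered limma (version 3.58.1, R version 4.3.3) as log2(normalized count + 1), with a mean for each of 8 groups over all 32 libraries, eBayes with a trend and Benjamini-Hochberg adjustment over the 12339 genes. The limit of 0.01 is that of the study. The shared fit estimates 1 spread from all groups. No library was a copy of another in its group by a chi-square test of the reads. At a mean of 10 counts, counting error alone is wide, molecular identifiers were not counted, and the spread between libraries exceeded counting noise. Count tests were not run.

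The genes compared and the 21 gene lists (504 symbols, of which 443 were tested) were chosen with earlier results of these data known, and no test was made over a list. Genes named by rule were ACLY, B2M, genes the study names, genes called after LPS and, in each list, the members called or of largest fold change. All others, such as CD14, MMP9 and the other genes at the 0.05 limit, list members named for their position, and TNFRSF9, were picked with their values in view. Some genes of the lists and of those that passed a limit are not reported here. Positions are from GENCODE release 44 on GRCh38, in which 56104 of 60107 identifiers were found, and promoters are from RefSeq (GRCh38.p14). Alternatives covered the scale, the filter, the pseudocount, the libraries in the fit, replicate block and library weights, and each library was left out in turn.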

Additional observations from a re-analysis of the deposited data

Results flagged for a closer look

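The genes named by rule and those at the 0.05 limit gave 158 groups of 4 libraries. Of these groups, 6 held a library far from the other 3. Chance gives about 0.05 of all groups, but genes at the 0.05 limit were selected on these same libraries, so the shares are not strictly comparable. HLA-DRA was at 4181 in HA LPS 4 against 2679 to 2872 in the other HA LPS libraries. Untreated HA 4 stood out likewise, at 3967 against 1926, 2436 and 2397 in HA 1, HA 2 and HA 3. Replicate 4 was also the highest in KO LPS (3963), WT (447) and WT LPS (423). In untreated KO it was not, at 3546 against 3752 in KO 2. IFI44 was at 571.7 in HA LPS 1 against 271.5 to 316.9, and ACSS2 was at 336.3 in the same library against 147.3 to 169.3. APOBEC3A had no read in HA LPS 1, with a value of 0, against 4.951 to 5.151. MYC was at 48.82 in HA LPS 4 against 14.72 to 15.84. IFNB1 was at 2.208 in HA LPS 2 and at 0 in the other 3 HA LPS libraries.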

How the results depend on the processing

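The counts of genes called after LPS and untreated were 1 and 28. On the values as deposited 61 genes were called after LPS, 2 of them higher in KO, against 1 of 1 on the joint scale, since the deposited tables shift KO against HA by -0.25. Fits of only the groups compared called 0 and 0 genes, without and with a replicate block, and a fit without the SA groups called 4 after LPS. Library weights called 55 and 140. Alternatives chosen after seeing the data called 14 after LPS with voom on the reads, 9 without the 4 KO and HA libraries farthest from their groups, 17 and 50 without SA LPS 1, and 25 and 53 at a limit of 0.05. Leaving out 1 library of the groups compared gave 0 to 3 genes after LPS, and 8 (without KO 1) to 35 (without HA 1) untreated, with 10 without KO 2, 12 without HA 2, 15 without HA 3 and 14 without HA 4. After LPS the count was 0 without KO LPS 2, HA LPS 2, HA LPS 3 or HA LPS 4, 2 without HA LPS 1 and 3 without KO LPS 3 or KO LPS 4, and without KO LPS 1 the gene called was CD14. The interaction called 0 genes in every fit.

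Same-numbered KO LPS and HA LPS libraries deviated together with r = -0.178, 0.326, 0.229 and 0.294. Of 4 KO LPS libraries 1 correlated best with its own number, and the numbers were not taken as pairs. Replicate 4 still had the highest share of mitochondrial reads in KO LPS (8.02%) and HA LPS (8.36%). The same held in untreated KO (6.94%) and HA (8.11%), but not in SA LPS (7.84%, against 7.95% in SA LPS 1). What same-numbered libraries have in common was not tested. Untreated and LPS libraries of the same line and number correlated with r = 0.131 to 0.683 in KO and -0.229 to 0.588 in HA, below 0.1 in HA 2 and HA 3. A replicate block within each line, added after seeing the data, called 0 genes in the interaction, with 255 at an unadjusted p below 0.05 over all libraries and 260 over KO and HA alone. A replicate block over all 32 libraries called 23 genes after LPS, 18 of them higher in KO, and 48 untreated.

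Some log2 fold changes reversed. ACLY was at -0.17 as deposited, -0.038 with library weights, -0.011 without the 4 farthest libraries and between -0.052 and 0.19 when 1 library was left out. HLA-DRA was at -0.092 and CIITA at -0.16 as deposited, CIITA ran from -0.070 to 0.28 when 1 library was left out, and ABCA1, reported at 0.86, was at -0.11 with library weights. Of 1726 values for single genes under the alternatives, 1623 kept direction and side of the limit, 87 passed the limit where the reported value did not, 7 no longer did (all IFI44L) and 9 reversed, and 430 of 462 list medians moved by less than the spread between libraries. The cause of these changes was not tested. The edgeR and DESeq2 tests planned for the recovered reads were not run.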
